A study of Mus musculus with 155 samples.

Results

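The genes of oxidative phosphorylation were examined in mouse embryonic stem cells (ESCs), in retinoic acid (RA)-treated cells and in oligodendrocyte progenitor cells (OPCs) derived from them. Members were the protein-coding genes whose symbols begin with Ndufa, Ndufb, Ndufc, Ndufs, Ndufv, Sdh, Uqcr, Cox4 to Cox8 or Atp5, without Ndufa4l2, together with the 13 mitochondrial protein genes. The rule found 106 of the 55471 genes in each count table, 93 nuclear and 13 mitochondrial. Of the nuclear genes, 7 code for the catalytic core of complex I, 30 for its other subunits and 8 for its assembly factors. Complex II has 4 members, complex III has 8, complex V has 17, and complex IV has 12 common subunits and 7 tissue isoforms. The choice used names and no measured value.

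Complexes I to IV pass electrons from NADH and succinate to oxygen and, all but complex II, pump protons out of the mitochondrial matrix. Complex V, the ATP synthase, makes ATP as the protons flow back. Complex II is built from nuclear genes alone, while the other complexes join nuclear subunits to a few that the mitochondrial genome encodes, so each needs both genomes. Mouse ESCs use glycolysis beside respiration, and differentiation is known to change the balance between them.

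The cells carried a Dox-inducible, single-copy H3.3 transgene with a SNAP-HA tag in the KH2 line, as WT-H3.3 or with lysine 27 changed to methionine (H3.3K27M) or to leucine (H3.3K27L). Every library, controls included, came from Dox-treated cells, and each line was grown from hygromycin-selected colonies, so a difference between lines cannot be told apart from a difference between colonies. ESCs grown with LIF and 2i were taken at 4, 8, 24 and 72 h of Dox, and so were WT-H3.3 cells given GSK343, which inhibits the PRC2 methyltransferase, with 2 replicates each (32 libraries). RA-treated cells (1 µM RA for 4 days without LIF or 2i, labelled as neural progenitors) had 1 library for each of the 3 lines at 24 and at 72 h of Dox, and OPCs had 1 for WT-H3.3 and H3.3K27M at each of these times. The methods describe biological replicates made weeks apart, but RA-treated cells and OPCs have 1 library for each line and time here, so their p-values measure the spread between libraries of different times or lines.

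Libraries held 1247934 to 22269533 counts, except that of ESCs with H3.3K27L at 72 h, replicate 2, which held 68378. Each count in this shallow library stands for 14.6 counts per 1000000 (CPM), so ends of ESC ranges that come from it can rest on few counts. The 9 pluripotency markers summed to 3334 to 6341 CPM in ESCs and to 577 or less elsewhere, with Pou5f1, Dppa5a and Tdgf1 at 0 in OPCs. Neural progenitor markers summed to 152 to 437 CPM in RA-treated cells at 24 h and 45.3 to 104 CPM at 72 h, against 2909 to 4041 CPM in OPCs and up to 93.5 CPM in ESCs, so the summed level was far lower in RA-treated cells than in OPCs. The sum is mostly Nes in RA-treated cells (a mean of 269 CPM at 24 h and 48.7 CPM at 72 h) and mostly Fabp7 in OPCs, while Pax6 went from 18.9 to 27.7 CPM between the RA times. Markers of extraembryonic endoderm summed to 340 to 1570 CPM at 24 h and 490 to 1394 CPM at 72 h in those cells. Bulk counts cannot tell fewer cells of a type from less RNA per cell.

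The counts of the mitochondrial genes need to be read with a copy of part of the mitochondrial genome in view. Of the 13 genes, 7 carried counts and 6 did not. mt-Atp6 and mt-Co2 had 1 count each over all 42 libraries, and mt-Atp8, mt-Co3, mt-Nd3 and mt-Nd4l had 0. The 7 others ranged from 294485 counts for mt-Nd6 to 2161292 for mt-Co1. In the NCBIM37 genome (mm9), chr1:24618374-24623023 holds a copy, on its minus strand, of chrM:6394-11042, in 3 runs of 3067, 367 and 1222 identical bases. The 6 genes without counts lie within this stretch, and 99 to 100% of their 50-base runs occur elsewhere in the genome. The sequences below are both given 5′ to 3′ along the plus strand of the mitochondrial genome, to show how little separates gene and copy around the start of mt-Nd3 (chrM:9459-9806, plus strand), a core subunit of complex I. The base that differs is in capitals.
mitochondrial genome, chrM:9432-9491 (+): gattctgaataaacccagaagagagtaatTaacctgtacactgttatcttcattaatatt
copy on chromosome 1, chr1:24619926-24619985 (−): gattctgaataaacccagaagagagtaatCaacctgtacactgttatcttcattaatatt

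A read from such a stretch matches both places, and how the authors counted such reads is not given in the sources used here, so the level of these 6 genes cannot be read from the counts. The copy also reached 2 genes that were counted. In mt-Co1, the catalytic subunit of complex IV, 51.1% of 50-base runs and all of those in the last 300 bases occurred elsewhere. In mt-Nd4, a complex I subunit, 62.2% did, but 0 in the last 300 bases. mt-Nd2 and mt-Nd5, both of complex I, lie outside the stretch copied on chromosome 1. Of their 50-base runs 8.29% and 7.61% occurred elsewhere, and 31.9% and 1.99% of those in the last 300 bases. In mt-Nd1, mt-Nd6 and mt-Cytb, the cytochrome b of complex III, none did. mt-Nd5 and mt-Nd6 overlap on opposite strands (chrM:11742-13565 and chrM:13552-14070), and whether counting used strand is not stated.

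**Figure D1:**
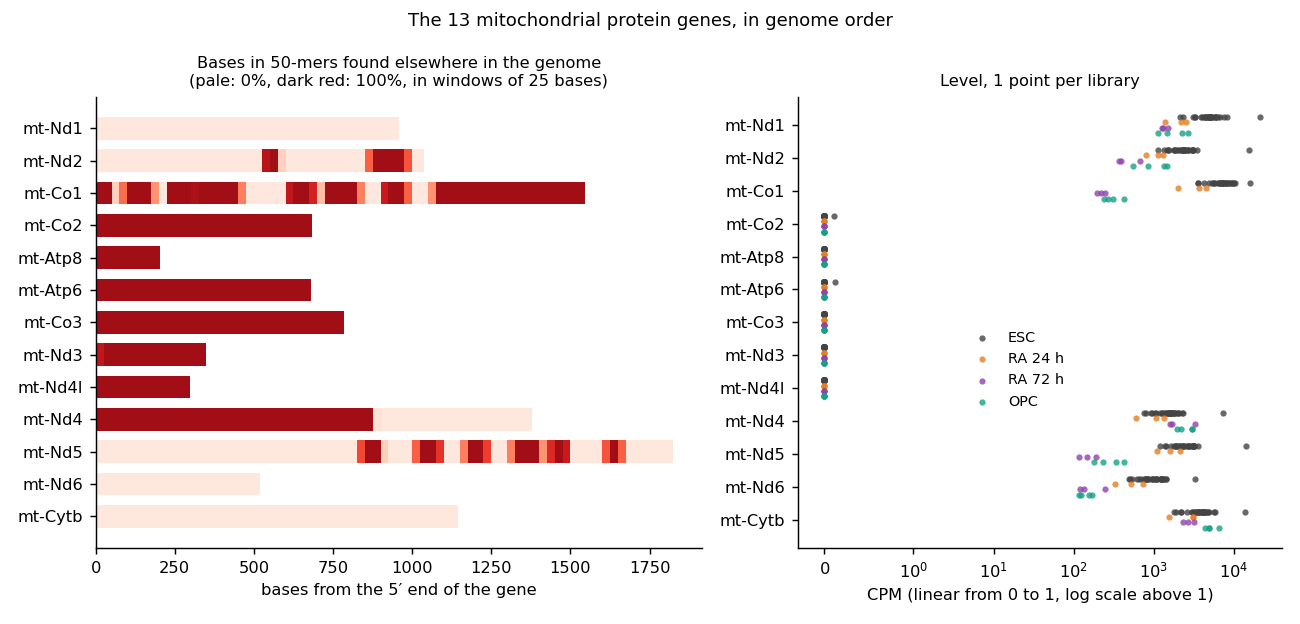
Left, each of the 13 mitochondrial protein genes drawn to length in bases, shaded by the share of bases in 50-base runs that occur elsewhere in the genome. Right, the CPM of each gene, 1 point per library, on an axis that is linear up to 1 and logarithmic above. The 6 genes that are dark throughout sit at or next to 0 in all libraries, and mt-Co1, mt-Nd5 and mt-Nd6 sit lower in RA-treated cells at 72 h and in OPCs than in ESCs.

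Members took a small part of the ESC transcriptome, and the mitochondrial genes most of that part. The 93 nuclear genes held 0.777 to 1.76% of ESC counts (median 1.37%), while the mitochondrial genes held 1.29 to 9.06% (median 2.38%). The highest mitochondrial and the lowest nuclear share were those of the library with 68378 counts. Per kilobase of summed exons, a scale that assumes reads along the whole transcript, mt-Nd1 led with a mean of 5615 CPM per kb ± 3294 (SD, n = 32), followed by mt-Co1 with 4763 and mt-Cytb with 3506. The highest nuclear members on this scale were Cox4i1 of complex IV (803 ± 227) and the complex V subunits Atp5b (544 ± 86.3) and Atp5a1 (486 ± 57.1), the β and α subunits of the catalytic head, whose means lie within 1 SD of each other. Complex V took the largest part of the nuclear members' counts, with a median of 46% over the ESC libraries (39.4 to 49.1%).

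**Figure D2:**
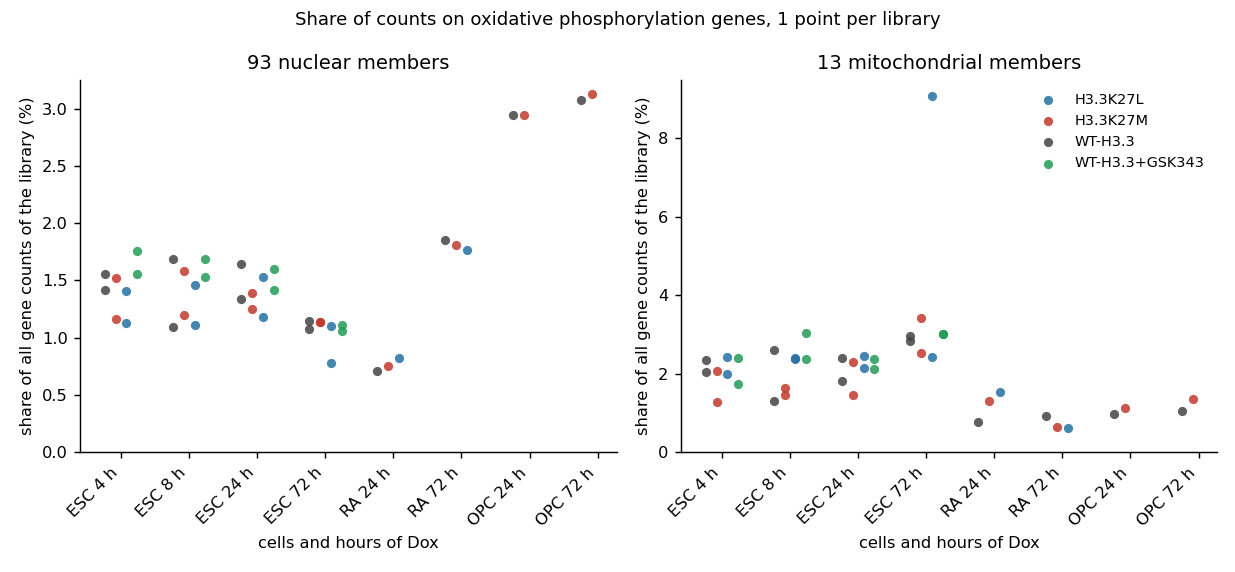
Share of all gene counts (%) on the nuclear members (left) and the mitochondrial members (right), 1 point per library, by cells and hours of Dox and coloured by line or treatment. Nuclear shares are 2.94 to 3.13% in the 4 OPC libraries and 1.77 to 1.85% in RA-treated cells at 72 h, above the 0.709 to 0.828% of RA-treated cells at 24 h, and the mitochondrial share of 9.06% belongs to the shallow H3.3K27L library at 72 h.

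The first question was whether mutated H3.3 or GSK343 changed these genes in ESCs. Of the 106 members 93 were tested (86 nuclear, 7 mitochondrial). The others were the 6 mitochondrial genes without counts, 3 genes of chromosome 8 and 4 with too few counts (Cox6a2, Cox8b, Cox8c and Ndufb4c). Each line or treatment was compared with the same 8 WT-H3.3 libraries over all 4 times. None of the 93 passed an adjusted p of 0.05 with edgeR in H3.3K27M, where 0.0142% of the 14076 genes tested were called (0.0071% in each direction), and none did with GSK343, where 0% were. DESeq2 also called 0 members in both, and 0 members had an unadjusted p under 0.05 with edgeR, against 11.5% of all genes in H3.3K27M and 4.41% with GSK343. The medians of the nuclear members were −0.12 and 0.10 on the log2 scale, and those of the mitochondrial members −0.29 and 0.16, with all genes at −0.01 and 0.01.

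In H3.3K27L 3 members passed, with 8.11% of all genes called, 2.92% higher and 5.19% lower. Ndufa9, an accessory subunit that helps join the matrix and membrane arms of complex I, had 106 to 177 CPM in WT-H3.3 (median 147) and 29.2 to 109 CPM in H3.3K27L (median 87), while the ranges of H3.3K27M (113 to 168) and GSK343 (111 to 182) largely overlapped that of the controls. Of the 8 H3.3K27L libraries 7 lay below every control, and on the log2 scale Ndufa9 fell by 0.70 (SE 0.12, adjusted p = 0.000634 with edgeR). Cox6b2, the testis isoform of a complex IV subunit, had 11.8 to 17.7 CPM in WT-H3.3 (median 14.7) and 16.1 to 29.2 CPM in H3.3K27L (median 22.4), ranges that overlap at the edge. Both 29.2 CPM values stand for 2 counts each in the shallow library. Cox6b2 rose by 0.53 (SE 0.131, adjusted p = 0.0116).

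Cox7b2, another complex IV isoform known from testis, was close to 0 in all lines. It had 0.121 to 3.9 CPM in WT-H3.3 (median 1.14) and 0 to 0.395 CPM in H3.3K27L (median 0.153), and fell by 2.49 (SE 0.634, adjusted p = 0.0148). Its call was lost without WT-H3.3 at 24 h, replicate 1 (−1.49), WT-H3.3 at 8 h, replicate 1 (−2.17), or H3.3K27L at 72 h, replicate 1 (−3.60), and that of Cox6b2 without the last of these (0.69). Ndufa9 passed without any 1 of the 16 libraries, with values from −1.06 to −0.61. Without WT-H3.3 at 8 h, replicate 2, 6 members passed in place of 3. The medians in H3.3K27L were −0.19 for nuclear and 0.31 for mitochondrial members, and the latter was 0.06 without the shallow library.

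The ESC series also compared 72 h with 4 h of Dox, over the H3.3K27L, H3.3K27M and WT-H3.3 lines (6 libraries each). Here the genomes moved apart: 18 nuclear members fell and none rose, while 5 of the 7 counted mitochondrial genes rose and none fell. Of all genes 9.53% were called, 4.72% higher and 4.81% lower. The median was −0.40 over the nuclear members, 0.86 over the mitochondrial ones and −0.01 over all genes. The share of counts on nuclear members was 1.13 to 1.56% at 4 h (median 1.42%) and 0.777 to 1.15% at 72 h (median 1.12%), and the mitochondrial share was 1.29 to 2.43% and 2.43 to 9.06% (medians 2.05% and 2.89%). Each pair of ranges overlapped only at its ends. Within 4 h, however, the nuclear share was 1.13% in H3.3K27L replicate 1 and 1.16% in H3.3K27M replicate 2, against 1.41 to 1.56% in the others. At 8 h it was 1.09 to 1.2% in the same replicates and in WT-H3.3 replicate 2, against 1.46 to 1.69%. H3.3K27L replicate 1 had 1.13, 1.11, 1.18 and 1.1% at 4, 8, 24 and 72 h. The part of such differences between libraries in the change with Dox time was not tested.

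Complex V held the most of the nuclear genes that fell, 7 of its 17 members. Atp5g3, which codes for the c subunit of the rotor ring, had 317 to 500 CPM at 4 h (median 418) and 102 to 293 CPM at 72 h (median 250), with no overlap, and fell by 0.82 (SE 0.176, adjusted p = 0.00934 with edgeR). Atp5g1, a second gene for the same protein, fell by 0.71, and Atp5e, the ε subunit of the head, by 0.95 (SE 0.239, adjusted p = 0.0189). Of complex IV 4 common subunits fell, among them Cox7a2 (−0.72), Cox6b1 (−0.65) and Ndufa4 (−0.62). Ndufb4 (−0.78) and Ndufa7 (−0.73) were 2 of the 4 accessory subunits of complex I that fell, and Ndufv1, which binds NADH, was the only core subunit to do so (−0.46).

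Complexes II and III gave 1 gene each. Uqcrfs1, the Rieske iron-sulfur protein of complex III, had 115 to 158 CPM at 4 h (median 140) and 85.2 to 114 CPM at 72 h (median 89.7), 2 ranges that do not overlap, and fell by 0.58 (SE 0.124, adjusted p = 0.00919). Sdhc, a membrane anchor of complex II, fell by 0.51, whereas Sdha, its catalytic subunit, differed by 0.15 (adjusted p = 0.273). None of the complex I assembly factors passed.

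Among mitochondrial genes, mt-Nd5 had 1198 to 3061 CPM at 4 h (median 2043) and 2872 to 14157 CPM at 72 h (median 3131), and rose by 1.02 (SE 0.261, adjusted p = 0.0208). Only the highest library at 4 h reached into the range at 72 h. mt-Co1, at 3514 to 7866 CPM (median 6101) and 7819 to 15824 CPM (median 9336), rose by 0.66 (SE 0.195, adjusted p = 0.0374). mt-Nd2 (1.00), mt-Nd4 (0.87) and mt-Nd6 (0.86) rose too, while mt-Nd1 (0.75, adjusted p = 0.0628) and mt-Cytb (0.67, adjusted p = 0.0736) did not pass.

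These calls depended on single libraries. Without the shallow H3.3K27L library at 72 h, 8 members passed in place of 23, all nuclear and lower, and the medians were −0.36 and 0.42. Leaving out H3.3K27M replicate 2, WT-H3.3 replicate 1 or WT-H3.3 replicate 2 at 72 h left 3, 11 and 3 calls. At 4 h, leaving out H3.3K27L replicate 2, H3.3K27M replicate 1, WT-H3.3 replicate 1 or WT-H3.3 replicate 2 left 3, 2, 2 and 15, and leaving out H3.3K27M replicate 2 gave 35. The nuclear median stayed between −0.66 and −0.29 and the mitochondrial median between 0.42 and 1.04 over all 12 of these fits. Whether the difference between 72 and 4 h differed from that in WT-H3.3 was tested for H3.3K27M, H3.3K27L and GSK343. It passed for 0 members each with edgeR, where 0% of all genes were called, with 0, 1 and 0 members at an unadjusted p under 0.05, and DESeq2 called 0. Other genes of the translation and energy machinery, from lists written beside the members, gave 0 higher and 20 lower of 82 cytosolic ribosomal proteins (median −0.42), 0 and 6 of 72 mitochondrial ribosomal proteins (−0.35), 1 and 4 of 19 glycolysis genes (−0.14) and 1 and 2 of 14 tricarboxylic acid (TCA) cycle genes (−0.11).

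In RA-treated cells 91 members were tested, and none passed between the lines. H3.3K27M had 3 members at an unadjusted p under 0.05 and H3.3K27L had 6, while edgeR called 0.0163% of all genes for H3.3K27M (0.00815% in each direction) and 7.03% for H3.3K27L (3.51% higher and 3.52% lower). DESeq2 called 0 and 1. The methods pool the Dox times of these cells as similar, and a fit with the times pooled also called 0 members in each line, with a common dispersion of 0.459 in place of 0.0177. These counts rested on the libraries at hand, since leaving out WT-H3.3 at 24 or 72 h gave 7 and 5 members in H3.3K27M and likewise 7 and 13 in H3.3K27L, and leaving out H3.3K27L at 72 h gave 2.

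The Dox times of RA-treated cells lay far apart. Comparing 72 h with 24 h over the 3 lines, 70 nuclear members rose and 5 fell, and 1 mitochondrial gene rose and 4 fell. Of all genes 69.4% were called, 33.2% higher and 36.2% lower. The median of the nuclear members was 1.43, that of the mitochondrial genes −0.98 and that of all genes −0.07. The nuclear share of counts was 0.709 to 0.828% at 24 h and 1.77 to 1.85% at 72 h, without overlap, whereas the mitochondrial share was 0.776 to 1.54% and 0.612 to 0.917%. Each time had 1 library a line, and the 72 h libraries were shallower (2239137 to 3268238 counts against 5050115 to 22269533). Dox time cannot be told apart from the preparation of the libraries. For it the methods name 2 kits, among them a 3′ tag kit, without saying which library used which. The paper describes Dox added 24 h after the start of RA and cells taken 72 h later. It does not state the time in RA of the 24 h cells, so Dox time may also go with time in RA.

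Of the classes, the accessory subunits of complex I had the highest median. Of 27 complex I accessory genes 25 rose (median 2.36). Ndufb3, a membrane arm subunit, had 25.3, 22 and 29.7 CPM at 24 h (lines in the order WT-H3.3, then H3.3K27M, then H3.3K27L) and 307, 261 and 269 CPM at 72 h. Every library at 72 h was far above every one at 24 h, and the log2 rise of Ndufb3 was 3.67 (SE 0.149, adjusted p = 1.57e-09 with edgeR). Ndufaf8, a complex I assembly factor, went from 4.55, 7.09 and 6.43 CPM to 100, 77.9 and 69.8 CPM in the same order (3.93, SE 0.205, adjusted p = 8.87e-09). It was the highest of all members tested here, and 7 of the 8 assembly factors rose, with Ndufaf1 lower (−0.59).

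The core of complex I behaved less uniformly, with 4 genes higher, 1 lower and a median of 0.50. Ndufs7, which carries the last iron-sulfur cluster before ubiquinone, had 24.8, 32.3 and 39.1 CPM at 24 h and 63.9, 57.6 and 61.8 CPM at 72 h (1.16, adjusted p = 4.45e-05). Ndufs3, its neighbour in the peripheral arm, had 43.6, 40.9 and 43.1 CPM and then 17.0, 16.4 and 13.5 CPM (−1.22, adjusted p = 4.41e-05). The libraries of the 2 times did not overlap for either gene, and the counts moved in opposite directions. In Ndufs3 81.7% of 50-base runs in the last 300 bases occur elsewhere, against 0% in Ndufs7, so the counts of Ndufs3 are uncertain.

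In complex II Sdhb, the iron-sulfur subunit, rose by 1.48 and 3 of 4 members rose, but Sdha, at 273, 285 and 256 CPM and then 221, 216 and 221 CPM, did not pass (−0.07, adjusted p = 0.621). In complex III 6 of 8 rose (median 1.84), led by Uqcrh, a hinge protein, from 81.2, 94.1 and 113 CPM to 469, 494 and 460 CPM (2.55). Uqcrc2, a core protein of the same complex, went the other way in all 3 lines, from 115, 128 and 129 CPM to 26.3, 15.1 and 13.2 CPM (−2.59, SE 0.211, adjusted p = 3.51e-07). No 50-base run of its last 300 bases occurs elsewhere in the genome.

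Of the complex IV common subunits 10 of 11 tested rose (median 1.63), and Cox7c went from 59.8, 64.3 and 65.1 CPM to 875, 860 and 654 CPM (3.88, SE 0.164, adjusted p = 2.05e-09). Cox5a, which did not pass, was at −0.16. In complex V 14 of 17 rose and 2 fell (median 1.07). Atp5g3 had 187, 194 and 236 CPM at 24 h and 1944, 2310 and 2392 CPM at 72 h (3.66), and Atp5md, a small subunit also called Usmg5, went from 19.8, 26.3 and 30.1 CPM to 414, 273 and 247 CPM (3.79). Atp5g2, the third gene for the c subunit, went from 20.8, 18.5 and 18.5 CPM to 6.25, 3.22 and 2.45 CPM (−2.12, adjusted p = 3.23e-05). All of the last 300 bases of Atp5g2 occur elsewhere as well, so its reads may be shared with copies. Atp5c1 was lower too (−0.80). In Cox7c and Atp5md 73.3 and 92.8% of 50-base runs in the last 300 bases occur elsewhere, so their counts are uncertain.

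The mitochondrial genes did not move together. mt-Co1 had 2000, 3611 and 4427 CPM at 24 h and 193, 221 and 246 CPM at 72 h, in the same order of lines, and fell by 3.63 (SE 0.2, adjusted p = 1.3e-08). mt-Nd5 went from 1103, 1601 and 2101 CPM to 189, 115 and 147 CPM (−3.17), and mt-Nd6 (−1.45) and mt-Nd2 (−0.98) also fell. mt-Nd4, at 596, 1075 and 1322 CPM and then 3205, 1596 and 1694 CPM, rose by 1.33 (adjusted p = 0.00266). mt-Cytb (0.36, adjusted p = 0.207) and mt-Nd1 (−0.31, adjusted p = 0.192) did not pass.

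Since mitochondrial genes of one strand are transcribed together, their ratios within a library were also computed. The ratio of mt-Co1 to mt-Cytb counts was 1.17 to 3.79 in ESCs (median 1.85) and 1.19 to 1.44 in RA-treated cells at 24 h, but 0.0606 to 0.108 at 72 h and 0.048 to 0.0872 in OPCs. mt-Nd5 to mt-Cytb gave 0.417 to 1.09, 0.528 to 0.707, 0.0432 to 0.0644 and 0.0371 to 0.0878. RA-treated cells at 72 h and OPCs thus lay apart from the other libraries with no overlap in either ratio. For mt-Nd4 the ratio was 0.345 to 0.563 in ESCs, 0.355 to 0.429 in RA-treated cells at 24 h, 0.598 to 1.01 at 72 h and 0.338 to 0.685 in OPCs. The last 300 bases of mt-Co1 lie in the chromosome 1 copy and those of mt-Nd4 do not. In mt-Nd5, whose ratio was low beside that of mt-Co1, 1.99% of 50-base runs in the last 300 bases occur elsewhere. In mt-Nd6, which also fell, 0% do. The part that shared sequence, or the library kit, has in these ratios was not tested.

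**Figure D3:**
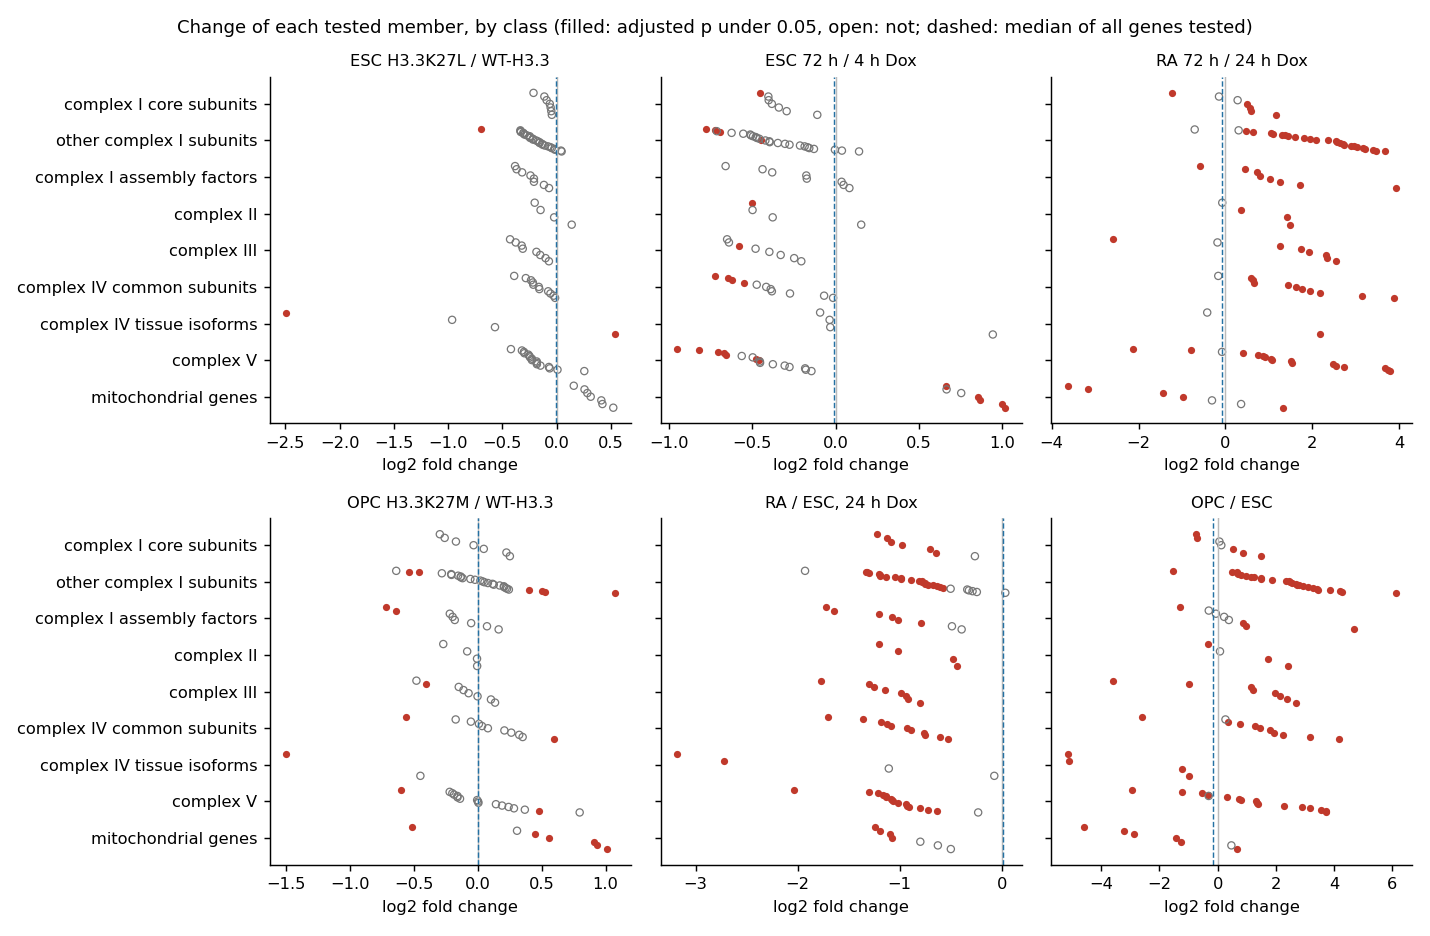
Log2 fold change of each tested member in 6 comparisons, by class (filled red, adjusted p under 0.05; open, not), with the median of all genes tested as a dashed line. In RA-treated cells 70 of 84 nuclear members are filled to the right at 72 h against 24 h, while in RA-treated cells against ESCs at 24 h 74 of 87 are filled to the left.

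Members are short, and short genes as a whole were higher at 72 h. Among other genes the median log2 fold change was 1.59 under 1 kb of summed exons, 0.64 from 1 to 2 kb, 0.03 from 2 to 4 kb and −0.43 from 4 kb. The nuclear members had 1.85, 1.43, 0.72 and 1.04 in the same bins. The members' medians were above those of other genes in every bin, by the least among the shortest genes. Over 84 nuclear members the Spearman correlation of the change with length was −0.22, and −0.33 over 11555 other genes (genes share the same 6 libraries). Cytosolic ribosomal proteins, short as well, had 61 higher and 11 lower of 81 (median 1.30) and mitochondrial ones 59 and 6 of 72 (1.05). Glycolysis had 1 higher and 16 lower (−1.15) and the TCA cycle 6 and 6 of 14 (0.01).

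Members with and without sequence shared with other places were set side by side. Of 92 nuclear members compared, 58 had no 50-base run of their last 300 bases elsewhere in the genome. Of the 51 of these that were tested in RA-treated cells, 42 rose and 2 fell (median 1.43). Of 11 tested with more than 50% of such runs elsewhere, among them Atp5g2, Atp5l, Atp5md, Ndufs5, Ndufs3 and Cox7c, 8 rose and 2 fell (median 0.74), and counts of these genes are uncertain.

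**Figure D4:**
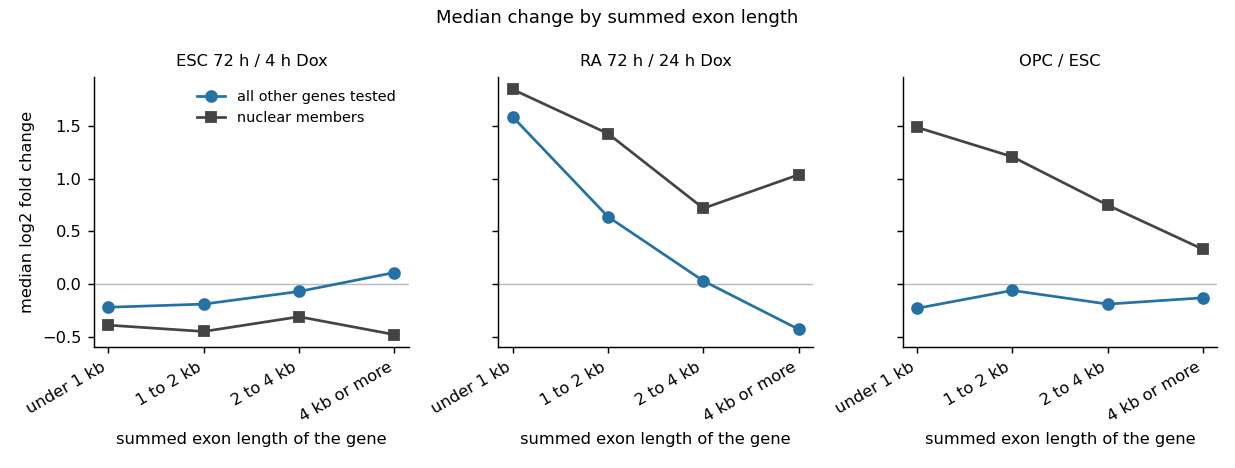
Median log2 fold change by summed exon length, for nuclear members (squares) and all other genes tested (circles), in 3 comparisons. For RA-treated cells at 72 h against 24 h both lines fall from the first bin, from 1.85 and 1.59, whereas for OPCs against ESCs the other genes stay between −0.23 and −0.06 and the members go from 1.49 to 0.33.

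In OPCs the question was whether H3.3K27M changed these genes (2 libraries a line, 92 members tested). Of the nuclear members 6 rose and 8 fell, and of the mitochondrial genes 5 rose and 1 fell. Of all genes 51.5% were called, 25% higher and 26.5% lower, so the called share was below that of all genes for the nuclear members (14 of 85) and above it for the mitochondrial ones (6 of 7). The nuclear median was 0.00, that of the mitochondrial genes 0.56 and that of all genes 0.00. With the Dox time as a block, the only pairing these libraries allow, 32 members passed, 12 nuclear higher and 13 lower, 6 mitochondrial higher and 1 lower.

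Ndufc2, a membrane arm subunit of complex I, had 463 and 532 CPM in H3.3K27M at 24 and 72 h and 226 and 252 CPM in WT-H3.3, with the lines well apart, and rose by 1.07 (SE 0.139, adjusted p = 9.12e-05 with edgeR). Ndufa10 (0.53), Ndufa12 (0.50), Ndufv3 (0.40), Cox7a2l (0.59), which helps join complexes III and IV, and Atp5c1 (0.47), the γ shaft of complex V, rose as well. Cox6b2 had 3.2 and 3.85 CPM in H3.3K27M and 10.7 and 9.53 CPM in WT-H3.3, a low level throughout, and fell by 1.5 (adjusted p = 0.00089). The assembly factors Ndufaf6 (−0.72) and Ndufaf5 (−0.64), Atp5md (−0.60), Cox7b (−0.56), Ndufa5 (−0.54), Ndufb6 (−0.46) and Uqcrb (−0.40) fell. In Cox7a2l, Atp5md and Uqcrb 67.3, 92.8 and 69.7% of 50-base runs in the last 300 bases occur elsewhere, so their counts are uncertain.

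mt-Nd2 had 1345 and 1434 CPM in H3.3K27M and 544 and 843 CPM in WT-H3.3 (1.01, adjusted p = 0.00126), and mt-Nd1 had 2224 and 2668 CPM against 1121 and 1463 CPM (0.93, adjusted p = 0.00104). For both genes each H3.3K27M library was above each WT-H3.3 library. mt-Nd5 (0.91), mt-Co1 (0.56) and mt-Nd6 (0.44) rose too. mt-Nd4 had 1937 and 2191 CPM against 2998 and 2947 CPM and fell by 0.51 (adjusted p = 0.011), and mt-Cytb, at 4831 and 6473 CPM against 4374 and 4841 CPM, did not pass (0.31, adjusted p = 0.167).

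The lines differed in other RNAs as well. The 7 OPC markers summed to 1999 to 2249 CPM in H3.3K27M and 677 to 693 CPM in WT-H3.3, and fibroblast markers to 21.3 to 25.7 and 519 to 583 CPM. Olig1, Olig2 and Ptprz1 carry most of the OPC sum, while WT-H3.3 had the higher mean of Pdgfra (18 CPM against 0.628) and Sox10 (2.46 CPM against 0.308). Mitochondrial ribosomal RNA took 0.775 to 0.894% of counts in H3.3K27M and 0.45 to 0.551% in WT-H3.3. The part of the cell mixture in the differences of these 20 members was not tested. Cytosolic ribosomal proteins gave 28 higher and 3 lower of 79 (median 0.26), and mitochondrial ribosomal proteins 5 and 19 of 68 (−0.13).

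The stages were compared over 22 libraries of the 3 lines at 24 and 72 h, with 94 members tested. Stage goes with the count table, the culture and possibly the kit, which cannot be told apart, so the values are differences between these sets of libraries. The RA and OPC comparisons share ESC libraries. The scaling matters here: with RLE factors in place of TMM the median of all genes moved from 0.01 to 0.13 for RA-treated cells at 24 h, from −0.16 to 0.25 at 72 h and from −0.15 to 0.23 for OPCs. Relative to the median of all genes, the nuclear members were at −0.99, 0.66 and 1.38 with TMM and −0.99, 0.67 and 1.38 with RLE factors.

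At 24 h RA-treated cells had 74 nuclear members lower than ESCs and none higher, with a median of −0.98, and 4 of the 7 mitochondrial genes lower (median −1.08). Of all genes 60.9% were called, 29.8% lower. Every class had its median below 0, with −0.75 in complex II, −1.06 in complexes III and V, −1.04 in the assembly factors and −1.91 over the 4 tested tissue isoforms of complex IV, which are at low levels. All 8 members of complex III and all 4 of complex II were lower. Cox5a, a complex IV subunit, had 137 to 200 CPM in ESCs at 24 h (median 173) and 49.7 to 62.2 CPM in RA-treated cells, with no overlap, and fell by 1.70 (SE 0.168, adjusted p = 2.39e-08). Atp5g1 (−2.03) and Uqcr10 (−1.77) were the lowest of their complexes, while Ndufa2 was at 0.04. Cytosolic ribosomal proteins were lower in 82 of 82 (median −1.13), mitochondrial ones in 60 (−0.91) and glycolysis genes in 12, with 2 higher (−1.08).

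At 72 h more nuclear members were higher than lower in RA-treated cells. Of them 46 were higher than in ESCs and 21 lower (70.2% of all genes called, 32.4% higher and 37.8% lower), while 6 of the 7 mitochondrial genes were lower (median −3.19) and 0 higher. With RLE factors the nuclear counts were 57 and 13. Accessory subunits of complex I had 22 higher and 2 lower (median 1.65), and its core 1 higher and 5 lower (−0.54). Complex V had 8 higher and 5 lower (0.20). The difference between the comparisons at 72 and 24 h was tested in the same fit, and was higher for 64 nuclear members, lower for 3 and lower for 5 mitochondrial genes, with 44.1% of all genes called. It had a median of 1.56 over nuclear members, −2.12 over mitochondrial genes and −0.32 over all genes.

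OPCs against ESCs gave 62 nuclear members higher and 16 lower, and 1 mitochondrial gene higher and 5 lower, with 82.8% of all genes called (39.1% higher and 43.8% lower). The median was 1.23 over nuclear members, −1.43 over mitochondrial genes and −0.15 over all genes. RLE factors gave 69 nuclear members higher and 13 lower. Complex I accessory subunits were again the highest class, with 27 higher and 1 lower of 28 (median 2.45), and the core had 3 higher and 2 lower of 7 (0.12). Complexes III (6 and 2, 1.61), IV common subunits (9 and 1, 1.44) and V (12 and 4, 1.31) lay between, and complex II (2 and 1, 0.90) and the assembly factors (3 and 1, 0.30) followed. All 4 tested tissue isoforms of complex IV were lower, and their levels are given with the isoform sets.

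Ndufb4c had the highest fitted value, but with at most 0.119 CPM in ESCs its fold has no firm base and is not given. Next came Ndufaf8 (4.69), Ndufb3 (4.27), Ndufa2 (4.19) and Cox7c (4.16), the last with most of its final bases shared with copies. Uqcrc2 had 117 to 224 CPM in ESCs at 24 and 72 h (median 184) and 11.6, 13.6, 16.4 and 19.1 CPM in OPCs, without overlap, and fell by 3.58 (SE 0.196, adjusted p = 2.25e-13). Cox5a had 117 to 200 CPM (median 151) and then 20.1 to 28.1 CPM, and fell by 2.60 (SE 0.154, adjusted p = 8.48e-13). Atp5g2 (−2.94) and Ndufs5 (−1.55), both with copies, fell, as did Ndufaf1 (−1.30) and Atp5c1 (−1.22). In complex II Sdhc was 29.2 to 120 CPM in ESCs (median 95.3) and 443 to 522 CPM in OPCs (2.41), whereas Sdha was at −0.33 with TMM, past the threshold, and at 0.05 with RLE factors. The lowest ESC value of Sdhc is from the shallow library.

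Among mitochondrial genes mt-Co1 (−4.58), mt-Nd5 (−3.22), mt-Nd6 (−2.86), mt-Nd1 (−1.43) and mt-Nd2 (−1.26) were lower, mt-Nd4 was higher (0.65, adjusted p = 0.0444) and mt-Cytb did not pass (0.47, adjusted p = 0.0936). Per kilobase, the highest nuclear member changed from Cox4i1, on chromosome 8, in ESCs to Atp5g3 in RA-treated cells at 72 h (1016 CPM per kb) and in OPCs (1549). Cox6b1 (1457) followed in OPCs. mt-Cytb was the highest member of all in both (2369 and 4484 CPM per kb).

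The makeup of the nuclear share shifted along with its size. Complex I accessory subunits took 12.3 to 15.1% of the nuclear members' counts in ESCs, 15.1 to 16.1% in RA-treated cells at 24 h, 25 to 26.1% at 72 h and 25.3 to 26% in OPCs. The core of complex I took 6.4 to 10.2, 6.42 to 7.57, 3.15 to 3.45 and 3.2 to 3.52%, where 10.2% is that of the shallow library. In these 2 classes RA-treated cells at 72 h and OPCs overlapped with each other and not with ESCs. In complexes II, III and V and in the tissue isoforms they did not overlap with each other, as with 37.2 to 39.2% and 35.1 to 36.8% for complex V. The genes of the core have a median of 2142 bases of exon and the accessory subunits 1194.

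The change with Dox time in RA-treated cells and the difference of OPCs from ESCs rest on no common library. Over 84 nuclear members the Pearson correlation of the 2 changes was 0.94 (Spearman 0.93), with the same sign in 79 (94%). Over the 7 mitochondrial genes it was 0.96, and over 12174 other genes 0.53 (Spearman 0.52), with the same sign in 69.6%. These are descriptions across genes that share libraries, and the fit of the stages also held the RA libraries.

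**Figure D5:**
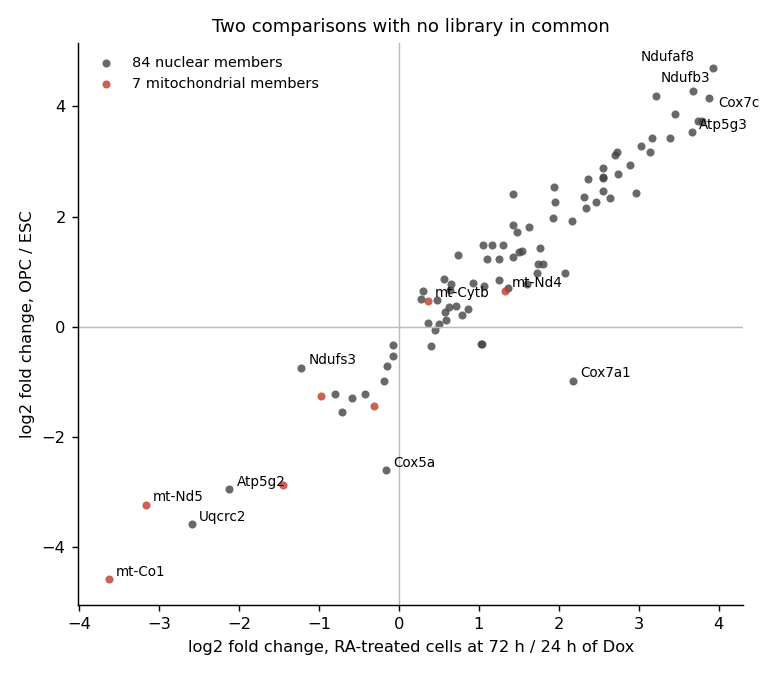
Log2 fold change at 72 h against 24 h of Dox in RA-treated cells (x axis) and of OPCs against ESCs (y axis), 1 point per member (black, 84 nuclear; red, 7 mitochondrial). Points lie close to 1 diagonal, from mt-Co1 (−3.63 and −4.58) and Uqcrc2 (−2.59 and −3.58) to Cox7c (3.88 and 4.16) and Ndufaf8 (3.93 and 4.69), with Cox7a1 (2.18 and −0.97) and Cox5a (−0.16 and −2.60) farther from it.

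Several members belong to sets of genes for the same subunit, and their levels did not move in step. Of the 3 genes for the c subunit of complex V, which differ in the targeting peptide, Atp5g3 was the highest everywhere, with 102 to 517 CPM in ESCs (median 385) and 3040 to 3733 CPM in OPCs. Atp5g1 had 14.6 to 137 CPM in ESCs (median 89.6), 22.4 to 29.6 and 40.7 to 48.6 CPM in RA-treated cells at 24 and 72 h, and 55.4 to 61.4 CPM in OPCs, where it did not pass against ESCs (−0.31, adjusted p = 0.121). Atp5g2 had 0 to 35.1 CPM in ESCs (median 30.5) and 2.29 to 5.47 CPM in OPCs, a change against that of Atp5g3. As 100% of the 50-base runs of Atp5g2 occur elsewhere in the genome, its level is uncertain. The lowest ESC values of Atp5g3 and Atp5g1 are from the shallow library.

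Complex IV isoforms of muscle, lung and testis stayed below the common forms. Cox4i2, the isoform known from lung, had up to 4.01 CPM in ESCs (median 1.19), 0.402 to 0.792 CPM in RA-treated cells at 24 h, 0 in all 3 libraries at 72 h and up to 0.133 CPM in OPCs, where Cox4i1 had 320 to 460 CPM. Cox7a1, the heart and muscle isoform, had up to 19.6 CPM in ESCs (median 13.4), 1.47 to 1.78 CPM in RA-treated cells at 24 h, 4.91 to 6.73 CPM at 72 h and 5.18 to 7.59 CPM in OPCs. It was lower in RA-treated cells than in ESCs at 24 h (−3.18) and at 72 h (−1.04), and lower in OPCs (−0.97). Cox6b2 had 9.71 to 29.2 CPM in ESCs (median 16.8) and 3.2 to 10.7 CPM in OPCs. In RA-treated cells it had 15.8 to 32.6 CPM at 24 h, where Cox6b1 had 103 to 140 CPM, and 11.6 to 17 CPM at 72 h. Cox7b2 had up to 3.9 CPM in ESCs, 0.135 to 0.966 CPM in RA-treated cells and up to 0.12 CPM in OPCs. Cox6a2, Cox8b and Cox8c had 31, 26 and 31 counts over all 42 libraries. Cox7a2, the common partner of Cox7a1, had 14.6 to 201 CPM in ESCs (median 144) and 406 to 428 CPM in OPCs, and Cox6b1 had 73.1 to 302 (median 181) and 690 to 781 CPM. The low ends of these ESC ranges are from the shallow library. Ndufb4c, a gene close to Ndufb4, had at most 0.119 CPM in ESCs, 0 in RA-treated cells at 24 h, 0.447 to 1.29 CPM at 72 h and 1.43 to 2.58 CPM in OPCs.

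Cox4i1, Ndufa13 and Ndufb7 lie on chromosome 8, whose genes were left out of the tests, so they have levels and no test. Of the other gene lists, glycolysis was the one that moved most against the nuclear members in OPCs, with 1 higher and 14 lower (median −3.31), and its share of counts was 0.213 to 0.216% there against 0.784 to 1.69% in ESCs. Mitochondrial ribosomal proteins had 42 higher and 18 lower (0.45), cytosolic ones 30 and 31 (−0.07), the TCA cycle 6 and 6 (−0.17) and the genes that express and copy the mitochondrial genome 2 and 13 (−0.81). Regulators of mitochondrial biogenesis had 3 higher and 6 lower (−0.62).

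The promoters of members were searched for motifs of factors known for nuclear respiratory genes. A RefSeq (GRCm38.p6) window was found for 76 members, and the 250 bases before the start were searched on both strands. The NRF1 motif, spelled by the capitals in the stretches below and the same on both strands, was in 5 members (6.58%) and in 0.877% of 27025 genes. The ETS motif CCGGAAGT was in 3.95% of members and 3.23% of genes. Stretches from 2 members with the NRF1 motif are shown since the counts of these complex V genes moved in opposite directions. Reads of Atp5g2 may be shared with its copies.
Atp5g2, chr15:102671060-102671109 (−): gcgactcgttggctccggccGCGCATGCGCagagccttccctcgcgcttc
Atp5k, chr5:108434420-108434469 (−): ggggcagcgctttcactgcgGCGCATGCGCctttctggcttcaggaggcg

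Atp5k, the e subunit of complex V, was higher in OPCs than in ESCs by 3.73, and Atp5g2 lower by the value given above. Of the 5 members with the motif 4 rose and 1 fell in RA-treated cells at 72 h (median 1.73), and of 67 without it 56 rose and 3 fell (median 1.36). In OPCs against ESCs the medians were 1.81 with it and 1.23 in 68 members without it. With 5 members, no difference between those with and without the motif was tested.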

How the data were processed

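RNA-seq was measured in 42 libraries of ESCs, RA-treated cells and OPCs. The authors aligned single-end reads to mm9 with STAR 2.7.1 (the submitters' processing notes) and deposited raw counts for each gene. The counter and its annotation are not given in the sources used here, and nothing was aligned or counted again. Counts on genes without a name in the annotation of NCBIM37 were 1.83% of the total, and no 2 libraries were identical.

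CPM are counts per 1000000 of all gene counts of a library. The test was edgeR 4.0.16 in R 4.3.3 (quasi-likelihood, TMM factors, filterByExpr), with Benjamini-Hochberg adjustment over all genes tested and a threshold of 0.05. The fit had a mean for each line and time in ESCs, line and time in RA-treated cells, line in OPCs, and stage by time plus line for the stages. The 1435 annotated genes of chromosome 8 were left out. Scripts were tested on simulated data. Python 3.11.15, NumPy 2.4.6, pandas 2.3.3 and Matplotlib 3.10.9 were also used.

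Members and lists were chosen with earlier results of these data known. The naming rule covered the highest and lowest member of a class, members that passed where 10 or fewer did, and the isoform sets. The text also names members outside this rule, among them all that passed in OPCs with H3.3K27M. Of the members 8 were matched through RefSeq synonyms, and Ndufb1 and Ndufb4b were not analysed here. A fit with pooled Dox times was an alternative in RA-treated cells. Other alternatives were DESeq2 1.42.0, RLE factors, mitochondrial genes left out of the scaling, no filter on low counts, chromosome 8 kept, a fold change of 2, only the compared libraries, each library left out and a replicate block. Replicates with the same number deviated together in WT-H3.3 and H3.3K27M ESCs at every Dox time (correlations of 0.45 to 0.59 over 12357 genes). For H3.3K27L the correlations with WT-H3.3 were −0.59 to 0.16. With GSK343 they differed by time, at 0.21, −0.14, −0.20 and 0.60 at 4, 8, 24 and 72 h. In OPCs of the same Dox time the correlation was 0.14. The 72 h OPC columns carry another replicate number than the sample titles and were assigned by line and Dox time, so the replicate number of these libraries is uncertain.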

Additional observations from a re-analysis of the deposited data

Results flagged for a closer look

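The library of H3.3K27L ESCs at 72 h, replicate 2, stood apart from the 7 others of its line. Mitochondrial members took 9.06% of its counts (next highest 2.46%), the log2 ratio of mitochondrial to nuclear counts was 3.54 (next highest 1.15), and mitochondrial ribosomal RNA took 0.471% (next highest 0.203%). It held 68378 counts, the fewest of all libraries. Gaps were tested 16 times, each time on 1 quantity in the 8 libraries of 1 line or treatment, so the tests share libraries. The threshold is passed by chance in about 1 of 20 such tests. The gaps here were 0.935, 0.787 and 0.681 of the range, in the order above, and all come from this library.

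The difference of RA-treated cells from ESCs was not the same at 72 h as at 24 h of Dox, by a test of the difference itself. It was higher at 72 h for 64 nuclear members and lower for 3, and lower for 5 mitochondrial members. Dox time cannot be told apart from library preparation in these cells, and it may also go with time in RA.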

How the results depend on the processing

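Counts of members that passed stayed within 1.5 times of the values reported in 182 alternative fits of whole comparisons and moved further in 28. With a fold change of at least 2 required, 1 member passed in ESCs with H3.3K27L, 1 in ESCs at 72 h against 4 h, 3 in OPCs with H3.3K27M and 43 in RA-treated cells against ESCs at 24 h. Without the filter on low counts, 2 members passed with H3.3K27M in ESCs, 11 with H3.3K27L, 39 at 72 h against 4 h, 1 with H3.3K27L in RA-treated cells and 1 for the line by Dox time terms. DESeq2 gave 1 for H3.3K27L in RA-treated cells. The replicate block gave 32 in OPCs, where the block is the Dox time because the replicate numbers in sample titles and count columns differ, and moved no other count by over 1.5 times. Crossed numbers for H3.3K27L, a pairing chosen after seeing the data, gave 7 with H3.3K27L and 47 at 72 h against 4 h in ESCs. Sdha in OPCs against ESCs turned from −0.33 to 0.05 with RLE factors and with DESeq2. Of the other values for single genes, 143 lost the threshold. Counts or medians of the nuclear or mitochondrial members moved in 117 cases. A count was taken to move when it changed by over 1.5 times or to or from 0. A median was taken to move when it changed by at least the median SE of its members. The causes were not tested.

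Over fits without 1 library, the number of members that passed ranged over 0 to 0 for H3.3K27M and for GSK343 and 2 to 6 for H3.3K27L in ESCs, 2 to 35 for 72 h against 4 h, 0 to 7 for H3.3K27M, 0 to 13 for H3.3K27L and 72 to 81 for 72 h against 24 h in RA-treated cells, 15 to 19 for H3.3K27M in OPCs, and 64 to 81, 66 to 75 and 80 to 85 for RA-treated cells at 24 h and 72 h and OPCs against ESCs. Depth limits the tissue isoforms, which had few counts.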

Other observations

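Other genes of mitochondria did not follow the nuclear members throughout. In RA-treated cells at 72 h against 24 h of Dox, further respiratory chain and assembly genes had 14 higher and 2 lower of 24 tested (median log2 fold change 0.61), genes that express and copy the mitochondrial genome 7 and 6 of 19 (0.12), and regulators of mitochondrial biogenesis 1 and 5 of 9 (−0.71). Against ESCs at 72 h, the same lists had 10 and 5 of 26 (0.31), 2 and 11 of 20 (−0.64) and 2 and 7 of 11 (−0.84), and glycolysis had 0 and 17 of 19 (−1.78). In OPCs with H3.3K27M, further respiratory chain and assembly genes had 3 higher and 8 lower of 23 (−0.30) and glycolysis 5 and 4 of 19 (0.00). In RA-treated cells with H3.3K27L, glycolysis had 5 higher and 0 lower (0.25) while 0 oxidative phosphorylation members passed with edgeR.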
